A study of Mus musculus with 4 samples.

Results

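The genes described here are the potassium channel genes of the mouse brain, taken as all genes with a symbol that starts with Kcn and with 50 or more unique molecules (UMI) summed over 4 brain sections. Of 19465 genes listed, 93 carried such a symbol, and 73 of these passed the minimum, while 20 did not. The 3 members just inside the minimum were Kcnrg with 57 UMI, Kcnh8 with 73 and Kcnj13 with 88. The 3 genes just outside it were Kcnn4 with 38 UMI, Kcnq1 with 37 and Kcne3 with 36. All but Kcnrg, which codes for a cytoplasmic protein that resembles a channel domain and forms no channel, code for channel or accessory subunits.

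Sections of formalin-fixed, paraffin-embedded brain, 5 µm thick, were placed on arrays of barcoded spots, so that each UMI is tied to a position in the tissue. There were 2 sections from rNLS8 mice and 2 from control mice, all labelled as 11 weeks old and all with doxycycline withdrawal, the sections being taken 3 weeks after it. In rNLS8 mice, withdrawal of doxycycline switches on a human TDP-43 protein that cannot enter the nucleus, in neurons in which the neurofilament heavy chain promoter is active, so that the transgene is not driven in glia. The labels do not give the genotype of the controls beyond that word. Replicate 1 of each group was labelled female and replicate 2 male. The series title places the study in TDP-43 neurodegeneration, rod-shaped microglia and cortical excitability. The labels do not name the animals, although the labelled sexes differ within each group. Counts of Y-linked genes bear this out in control, with 0 and 2559 UMI, and not in rNLS8, with 3836 and 2452 UMI. With 2 sections a group, p-values measure the spread between these sections only.

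Potassium channels let potassium leave the cell along its gradient, which sets the resting potential, ends the action potential and limits repetitive firing. Voltage-gated Kv families act along dendrites, soma and axon, calcium-activated SK and BK channels follow firing, K2P channels carry leak current, and inward rectifiers (Kir) hold the resting potential and, in astrocytes, take up potassium that neurons release. Silent Kv subunits form no channel alone and change the channels of the Kv2 family that they join, while beta and KChIP subunits attach to Kv1 and Kv4 channels.

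The sections held 28056089 and 17627577 UMI in rNLS8 and 19064969 and 23869254 in control, with a median of 9776 and 6316 UMI per spot in rNLS8 against 5364 and 6098 in control. Each of the 73 members had UMI in every section. A count of 0 would allow up to 0.107 and 0.170 UMI per 1e+06 UMI (CPM) in the rNLS8 sections and up to 0.158 and 0.126 CPM in the control sections, taking 3 counts as the limit and covering counting error only. The rNLS8 section of replicate 1, labelled female, held 136.7 CPM of Y-linked genes, against 0 in the control section of replicate 1, also labelled female. This library goes against its label for sex, so calls are also given without it. Between 1900 and 3047 spot barcodes recur in each pair of sections.

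Spots were clustered without the potassium channel genes and grouped into regions from marker genes. The cortical class, which includes spots led by claustrum and endopiriform markers, held 799 and 878 spots in rNLS8 against 943 and 744 in control. Different clusters filled it in the 2 groups: cluster 1, led by the immune genes Cst7, Cxcl10 and Cd52 and by the claustrum gene Nr4a2, held 619 and 754 spots in rNLS8 against 223 and 164 in control. Cluster 7, with the deep-layer gene Fezf2 among its leading genes, held 2 and 0 spots in rNLS8 against 481 and 332 in control, and the upper-layer cluster 8 held 178 and 124 against 239 and 248. Cortical results are therefore also given within clusters 1 and 8. In the striatum, cluster 2 held most rNLS8 spots (764 and 350, against 145 and 216 in control) and cluster 4 most control spots (14 and 29 in rNLS8, against 619 and 508). The rNLS8 section of replicate 2 had less striatum (379 spots, against 778 in the other rNLS8 section and 764 and 724 in control) and less septum and basal forebrain (75 spots, against 429, and 409 and 299 in control).

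Cortical spots were given to an upper, a layer 5 or a layer 6 class by marker scores. These classes are ranges along a score, and 15.5% and 19.5% of cortical spots in rNLS8 against 12.5% and 10.3% in control lay near a boundary. The upper-layer gene Rasgrf2, which was not used for the score, was highest in the upper class of every section, with 95.9 and 99.2 CPM in rNLS8 against 198 and 249 CPM in control. Values of the other genes kept out of the scores, including those for layers 5 and 6, are not given here. Rasgrf2 alone does not check the layer 5 and layer 6 classes. Score markers of the upper layers were themselves lower in the rNLS8 upper class: Calb1, a calcium-binding protein, had 264 and 225 CPM in rNLS8 against 735 and 705 CPM in control.

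**Figure D1:**
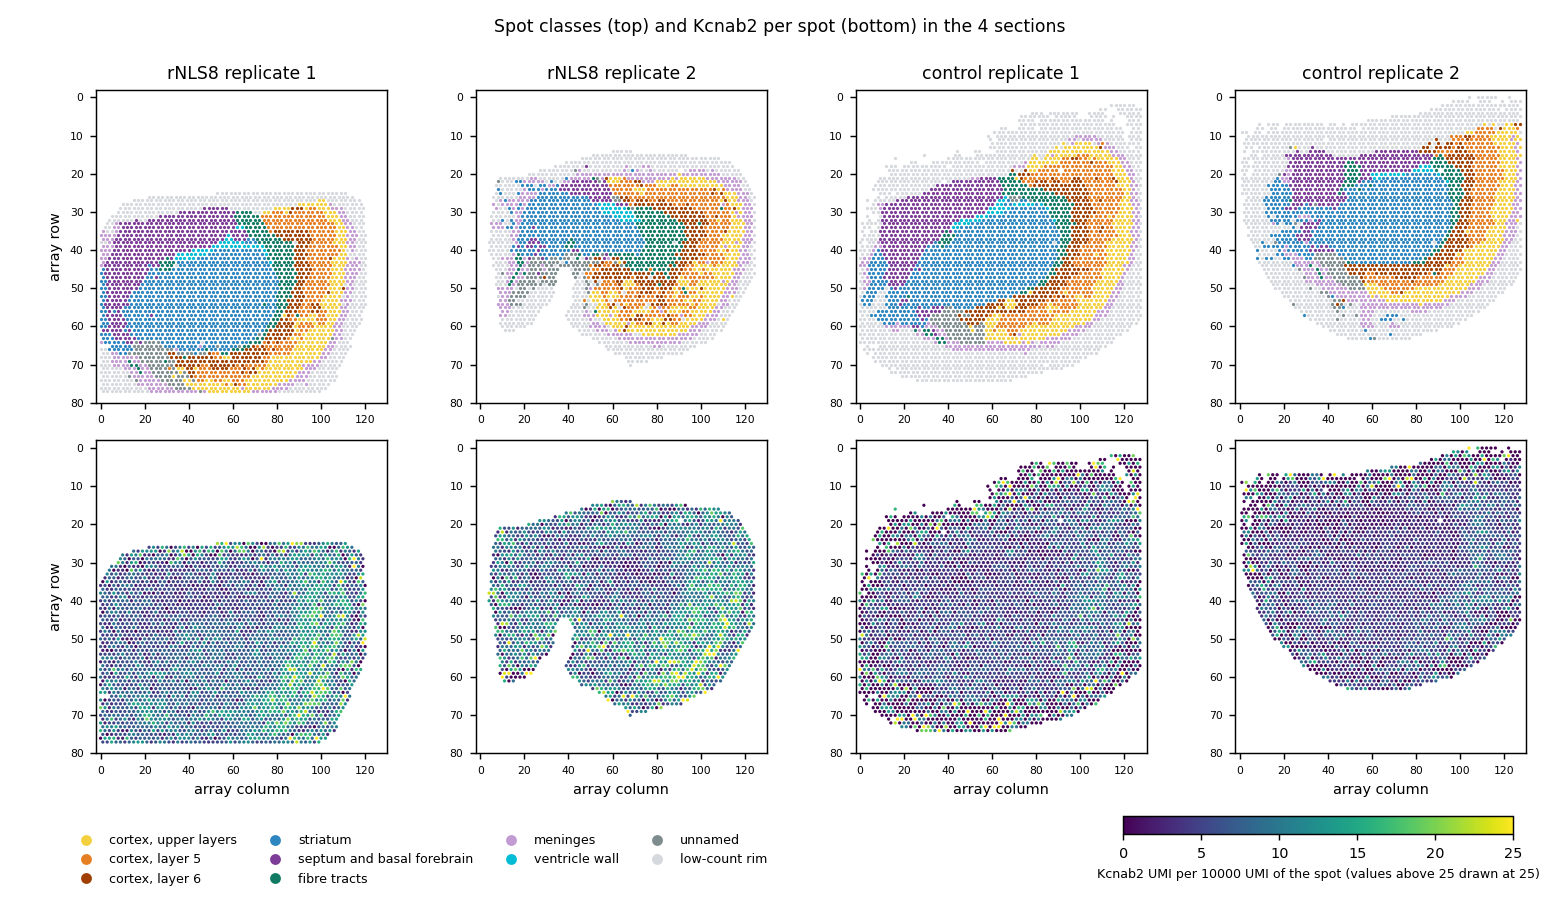
Spots of the 4 sections at their array positions, rNLS8 replicates 1 and 2 on the left and control replicates 1 and 2 on the right. The upper row colours each spot by region or cortical layer class, and the lower row shows UMI of Kcnab2 per 10000 UMI of the spot, with higher values drawn at 25. The cortex is the brightest area for Kcnab2 in both rNLS8 sections.

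In control brain the members differed widely in where they were highest. Among the 63 members with at least 100 UMI in the control sections, 51 had the same region of highest level in both control sections, and that region was cortex for 24, striatum for 15, septum and basal forebrain for 6, fibre tracts for 5 and meninges for 1. Kcnab1, the beta subunit that gives Kv1 channels fast inactivation, averaged 1256 CPM in control striatum and 449 CPM in the region next to it in rank. Kcnd2, the pore subunit of the dendritic A-type current, averaged 110 CPM in control striatum and 52.3 CPM in the next region. Its partner Kcnip2, a KChIP subunit, was also highest in striatum, with 214 CPM there and 97.3 CPM in the next region.

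Cortical members included Kcnj9, a subunit of the G-protein-gated GIRK channels, with 336 CPM in control cortex and 163 CPM in the next region. Kcnk4, the mechanically gated leak channel TRAAK, had 45.0 CPM in control cortex and 21.1 CPM in the next region. The silent subunit Kcns1 had 48.9 CPM in control cortex and 23.0 CPM in the next. Outside the grey matter, Kcnk13, the leak channel that microglia use, averaged 15.9 CPM in control fibre tracts and 4.76 CPM in the next region. Kcnj8, the pore of the ATP-sensitive channel of pericytes and smooth muscle, was highest in the meninges, at 25.5 CPM and 15.2 CPM in the next region. That lead came mostly from the control section of replicate 1, on 24 and 19 UMI in control meninges. Scaled as for the later tests, control meninges had 37.9 and 16.0 CPM and control fibre tracts 16.1 and 15.3 CPM. Between layers the members differed less: 38 of 57 members had the same layer class of highest level in both control sections, upper for 18, layer 5 for 10 and layer 6 for 10. Among these 57 members, each with at least 100 UMI in the control layer classes, the largest ratio was that of Kcng1, a silent subunit, at 37.5 CPM in layer 5 and 20.5 CPM in the next class.

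**Figure D2:**
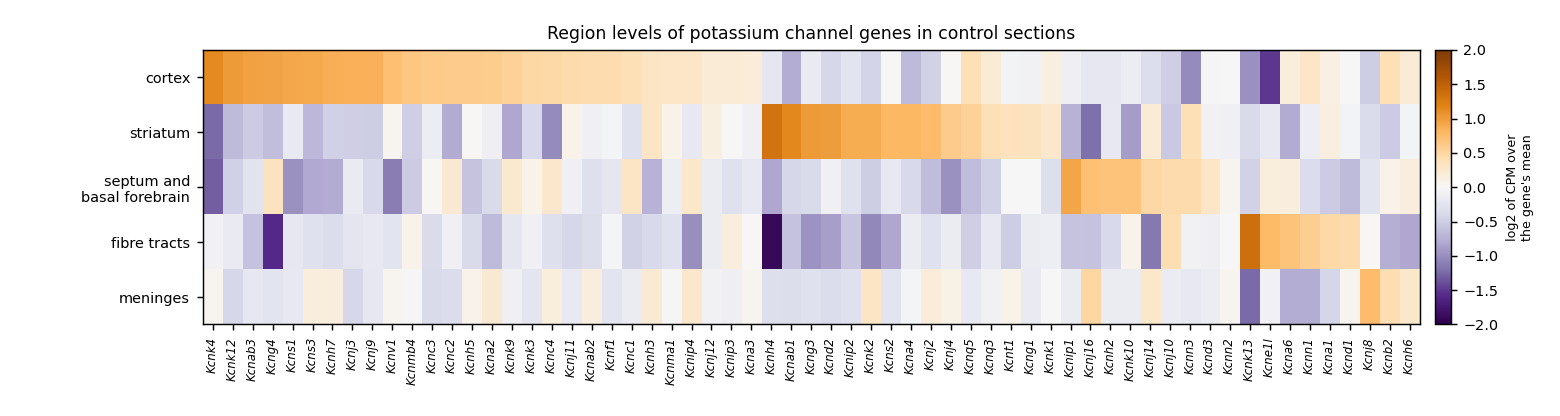
Control level of 61 of the 63 members with at least 100 control UMI in the 5 regions, as log2 of its mean CPM over its own mean across regions, so that colours compare regions within a gene and not genes with each other. The striatum row is high for Kcnab1, Kcnd2, Kcnip2 and Kcng3, the fibre tract row for Kcnk13, and the cortex row for Kcnk12, Kcnk4, Kcnj9 and Kcns1.

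Across whole sections no member passed the test. The test was edgeR's quasi-likelihood test on UMI sums per section with trimmed mean (TMM) factors, over all 13444 genes tested, with Benjamini-Hochberg adjustment and a threshold of 0.05; it called 0 members, 0.0% of all genes as higher and 0.0% as lower, and 19 members had an unadjusted p under 0.05, against 15.6% of all genes. DESeq2 called 5 members, against 3.86% of all genes, with Kcnab2 as higher and Kcnd2, Kcnn2, Kcns1 and Kcnv1 as lower. In bulk sums of this kind, fewer cells of a type and less RNA per cell cannot be told apart. Both rNLS8 values lay above both control values for 14 of 73 members, against 26.9% of all genes, and below them for 25 members, against 25.3% of all genes. The median log2 fold change was -0.10 over the members and 0.02 over all genes, and the members' median was 0.01 without the control section of replicate 2 and 0.00 without the rNLS8 section of replicate 2. Leaving out the control section of replicate 2 gave 8 calls among members, against 13.5% of all genes, and leaving out the rNLS8 section of replicate 1 gave 1, Kcns1, against 1.52%.

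Kcnk4 had the smallest p of all members, with 41.0 and 39.7 CPM (TMM-scaled, as all later values by section) in rNLS8 against 23.5 and 25.7 CPM in control, a log2 fold change of 0.71 ± 0.15 (SE, n = 2 sections a group; adjusted p = 0.173 in edgeR's test). Kcnh4, an ELK-type subunit, had the lowest fold change, -1.08 ± 0.52, on 1.96 and 1.40 CPM in rNLS8 against 2.00 and 5.12 CPM in control. The groups did not overlap for either gene, although the margin for Kcnh4 was small. Kcns2, a silent subunit, had 7.07 and 6.47 CPM in rNLS8 against 15.5 and 9.99 CPM in control. Kcnj13, the inward rectifier of choroid plexus and other epithelia, had 0.789 and 1.94 CPM in rNLS8 against 0.742 and 0.677 CPM in control. Other members near the ends of the range without overlap were Kcnj6 (log2 fold change 1.05), Kcne1l (0.81) and Kcnab2 (0.67) on the higher side and Kcns1 (-1.03), Kcnv1 (-0.84), Kcnd2 (-0.82) and Kcnab1 (-0.68) on the lower side.

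In the cortex, the silent subunit gene Kcnv1 was the member that passed the test, and it was lower in rNLS8. Next to it by p stood Kcnab2, the Kv1 beta subunit, which was higher in both rNLS8 sections, and Kcnc4, a fast-inactivating Kv3 subunit, which was lower in both. The test covered 67 members among 12236 genes and called 1 member as lower and 0 as higher, against 0.686% and 0.515% of all genes. Both rNLS8 values lay above both control values for 17 members, against 28.9% of all genes, and below them for 25, against 26.5%. The median log2 fold change was -0.17 over the members and 0.02 over all genes, with 27 members above 0 and 40 below; within cluster 1 the members' median was -0.01. Without the control section of replicate 1, 16 of 68 members were called, against 14.0% of all genes, and without that of replicate 2, 25 of 68, against 34.7%. Without the rNLS8 section of replicate 1, 1 member was called (Kcns1), against 1.53% of all genes, and without that of replicate 2 there were 0, against 0.658%.

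Kcnv1 (chr15:45096086-45115912, GRCm38) had 16.8 and 18.8 CPM in rNLS8 cortex against 38.0 and 37.7 CPM in control cortex. Both rNLS8 values lay below both control values, and the 2 sections of each group lay close together. The log2 fold change was -1.09 ± 0.17 (SE; adjusted p = 0.0446 in edgeR's test). The call was lost without the rNLS8 section of replicate 1 (adjusted p = 0.169 in edgeR's test), without that of replicate 2 (0.152), where cortex was defined by marker score alone (0.0537) and within cluster 8 (0.0520), with log2 fold changes of -1.01, -1.17, -1.03 and -1.24. Within cluster 1 the log2 fold change was -1.07 (adjusted p = 0.0291 in edgeR's test).

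Of the 11 Kv2 and silent subunits tested, Kcnv1 included, 7 were lower without overlap in rNLS8 cortex and 0 were higher. Of all genes, 26.5% were lower and 28.9% higher without overlap, and these shares stand beside each role group below. The median log2 fold change of the Kv2 and silent subunits was -0.34. Kcns1 had 33.6 and 13.3 CPM in rNLS8 against 45.0 and 57.6 CPM in control (log2 fold change -1.12 ± 0.39, adjusted p = 0.176 in edgeR's test). The 2 rNLS8 sections differed from each other here more than the control sections did, and without the rNLS8 section of replicate 1 the log2 fold change was -1.95 (adjusted p = 0.000893 in edgeR's test). It was also called without the control section of replicate 1 (log2 fold change -1.28, adjusted p = 0.0259 in edgeR's test), and within clusters 1 and 8 it was not called, at -0.60 and -0.83. The silent subunit Kcnf1 had 72.0 and 79.7 CPM in rNLS8 against 62.1 and 92.4 CPM in control. Both rNLS8 values of Kcnf1 lay between the 2 control values.

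For the Kv1 pore subunits and their beta subunits, 2 of 8 tested members were higher and 1 lower without overlap. Kcnab2 (chr4:152390744-152477549), whose product binds Kv1 channels and helps their delivery to axons, had 1094 and 1071 CPM in rNLS8 cortex against 715 and 603 CPM in control cortex. Every rNLS8 section was above every control section, by a log2 fold change of 0.72 ± 0.15 that did not pass the test (adjusted p = 0.0714 in edgeR's test). Within cluster 1 the log2 fold change was 1.01 (adjusted p = 0.0193 in edgeR's test) and within cluster 8 it was 1.08 (adjusted p = 0.00969 in edgeR's test). Kcna1, the axonal Kv1 pore subunit, went the other way, with 22.3 and 19.7 CPM in rNLS8 against 33.8 and 32.0 CPM in control (log2 fold change -0.65 ± 0.17, adjusted p = 0.107 in edgeR's test). Kcnab1 overlapped between groups, at 334 and 263 CPM in rNLS8 against 372 and 331 CPM in control.

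Of the 4 Kv3 members, which carry the fast repolarising current, 2 were lower without overlap. Kcnc4 (chr3:107438298-107460287) had 150 and 157 CPM in rNLS8 cortex against 267 and 229 CPM in control cortex (log2 fold change -0.69 ± 0.15, adjusted p = 0.0729 in edgeR's test). Neither rNLS8 section reached the lower control section. Its log2 fold change was -0.62 within cluster 1 (adjusted p = 0.0475 in edgeR's test) and -1.24 within cluster 8 (adjusted p = 0.0144 in edgeR's test). Kcnc1, the pore subunit of fast-spiking interneurons, had 286 and 216 CPM in rNLS8 against 243 and 226 CPM in control, with overlap between the groups.

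Promoter sequence is shown for Kcnab2 and Kcnc4, the 2 members called in opposite directions within both clusters 1 and 8, each with an entry in the RefSeq promoter table (GRCm38.p6); Kcnv1 has none there. Each run is the 250 bases before an annotated start, on the minus strand and written 5′ to 3′, with capitals for matches on either strand to the GC box GGGCGG or to TGACG, which lies within the cyclic AMP response element TGACGTCA. For Kcnab2 the entry with the most CpG of 3 is given.
Kcnab2, chr4:152477550-152477799: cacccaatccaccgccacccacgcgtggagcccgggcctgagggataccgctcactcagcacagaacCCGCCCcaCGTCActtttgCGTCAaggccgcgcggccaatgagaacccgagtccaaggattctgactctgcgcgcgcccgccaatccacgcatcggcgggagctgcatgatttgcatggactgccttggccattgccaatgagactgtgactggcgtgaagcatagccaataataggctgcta
Kcnc4, chr3:107458899-107459148: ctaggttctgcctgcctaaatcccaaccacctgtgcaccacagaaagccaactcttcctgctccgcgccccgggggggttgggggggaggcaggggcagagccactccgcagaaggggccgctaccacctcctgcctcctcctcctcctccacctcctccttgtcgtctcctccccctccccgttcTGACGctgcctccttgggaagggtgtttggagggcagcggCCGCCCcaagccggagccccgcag
The Kcnab2 window held 20 CpG, 2 matches to TGACG and 1 GC box, and the Kcnc4 window 12 CpG, 1 match to TGACG and 1 GC box. Across 75 entries of 52 members, 11 held TGACG, 35 a GC box, 3 the letters TATAAA and 0 the full element, with a median of 8 CpG. Of all 32851 entries, 17.8% held TGACG, 32.7% a GC box, 12.4% TATAAA and 1.55% the full element, with a median of 6 CpG. These matches describe letters only.

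The Kv4 and KChIP group had 2 of 7 members higher and 2 lower without overlap. Kcnd3, a Kv4 pore subunit, had 114 and 142 CPM in rNLS8 against 89.3 and 95.0 CPM in control, while Kcnd2 had 33.4 and 26.7 CPM in rNLS8 against 37.4 and 49.7 CPM in control. These 2 Kv4 pore subunits thus lay on opposite sides of their controls. Kcnip3, a KChIP that also acts in the nucleus, had 154 and 193 CPM in rNLS8 against 261 and 207 CPM in control, and Kcnip2 overlapped, with 130 and 62.3 CPM in rNLS8 against 87.8 and 116 CPM in control.

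In the Kv7 and KCNE group, 2 of 5 members were higher and 2 lower without overlap. Kcnq3, a pore subunit of the M-current that holds back repetitive firing, had 134 and 119 CPM in rNLS8 against 170 and 140 CPM in control. Kcne1l, an accessory subunit, had the largest positive fold change in cortex on low counts, with 4.85 and 8.48 CPM in rNLS8 against 2.16 and 3.54 CPM in control (log2 fold change 1.20 ± 0.43, adjusted p = 0.182 in edgeR's test), and it was called without the control section of replicate 2 at 1.58 (adjusted p = 0.0253 in edgeR's test). In the EAG, ERG and ELK group 3 of 6 members were lower without overlap and 0 higher. The ERG-type Kcnh7 had 160 and 141 CPM in rNLS8 against 194 and 215 CPM in control, and the ELK-type Kcnh3, with 86.8 and 63.4 CPM in rNLS8 against 79.1 and 110 CPM in control, overlapped.

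Of the calcium- and sodium-activated channels, 4 of 7 tested members were lower without overlap and 1 was higher. Kcnn2, the SK channel of the afterhyperpolarisation, had 149 and 156 CPM in rNLS8 cortex against 261 and 214 CPM in control cortex. Both rNLS8 values lay clearly below both control values, with a log2 fold change of -0.64 ± 0.16 (adjusted p = 0.0925 in edgeR's test). Kcnma1, the pore of the BK channel, had 107 and 115 CPM in rNLS8 against 133 and 154 CPM in control. The BK beta subunit Kcnmb4 had 137 and 175.1 CPM in rNLS8 against 187 and 174.8 CPM in control, with overlap.

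The inward rectifiers were the group with the most members higher without overlap, 6 of 11, against 28.9% of all genes. In this group 1 member was lower, against 26.5%, and the median log2 fold change was 0.22. In cortex edgeR's test called 0 of them. Kcnj10, the Kir channel of astrocytes, had 140 and 161 CPM in rNLS8 cortex against 94.7 and 101 CPM in control cortex (log2 fold change 0.62 ± 0.15, adjusted p = 0.0874 in edgeR's test). Within cluster 1 its log2 fold change was 1.04 (adjusted p = 0.0167 in edgeR's test) and within cluster 8 it was 0.69 (adjusted p = 0.0891 in edgeR's test). Of the GIRK subunits, Kcnj3 had 157 and 149 CPM in rNLS8 against 112 and 130 CPM in control. Kcnj9 had 406 and 360 CPM in rNLS8 against 352 and 354 CPM in control, and Kcnj6 had 6.36 and 4.18 CPM in rNLS8 against 1.55 and 4.07 CPM in control. These 3 were higher without overlap, Kcnj6 by a narrow margin on few counts. The margin of Kcnj9 was narrow too, with a log2 fold change of 0.115 (adjusted p = 0.677 in edgeR's test). Kcnj5, a further GIRK subunit with 108 UMI over the 4 sections, is not among these 3. The strong rectifiers of neurons did not share a direction. Kcnj2 had 52.9 and 51.0 CPM in rNLS8 against 31.8 and 42.5 CPM in control. Kcnj12 had 29.2 and 25.8 CPM in rNLS8 against 37.5 and 44.2 CPM in control, and Kcnj4 overlapped between the groups.

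For the K2P leak channels, 4 of 8 members were higher and 3 lower without overlap. The mechanically gated Kcnk10 had 51.0 and 66.0 CPM in rNLS8 against 46.0 and 28.4 CPM in control (log2 fold change 0.66 ± 0.26, adjusted p = 0.213 in edgeR's test), and Kcnk4 had 79.5 and 58.9 CPM in rNLS8 against 45.1 and 49.5 CPM in control. Kcnk1, a weak leak channel, had 245 and 262 CPM in rNLS8 against 312 and 341 CPM in control, and the acid-sensitive Kcnk3 had 116 and 111 CPM in rNLS8 against 106 and 107 CPM in control. Kcnk13 had 1.83 and 1.97 CPM in rNLS8 against 2.94 and 3.68 CPM in control (log2 fold change -0.80 ± 0.39, adjusted p = 0.302 in edgeR's test), on 17 and 16 UMI in rNLS8 against 19 and 28 UMI in control. Its change did not pass the test and rests on few UMI.

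**Figure D3:**
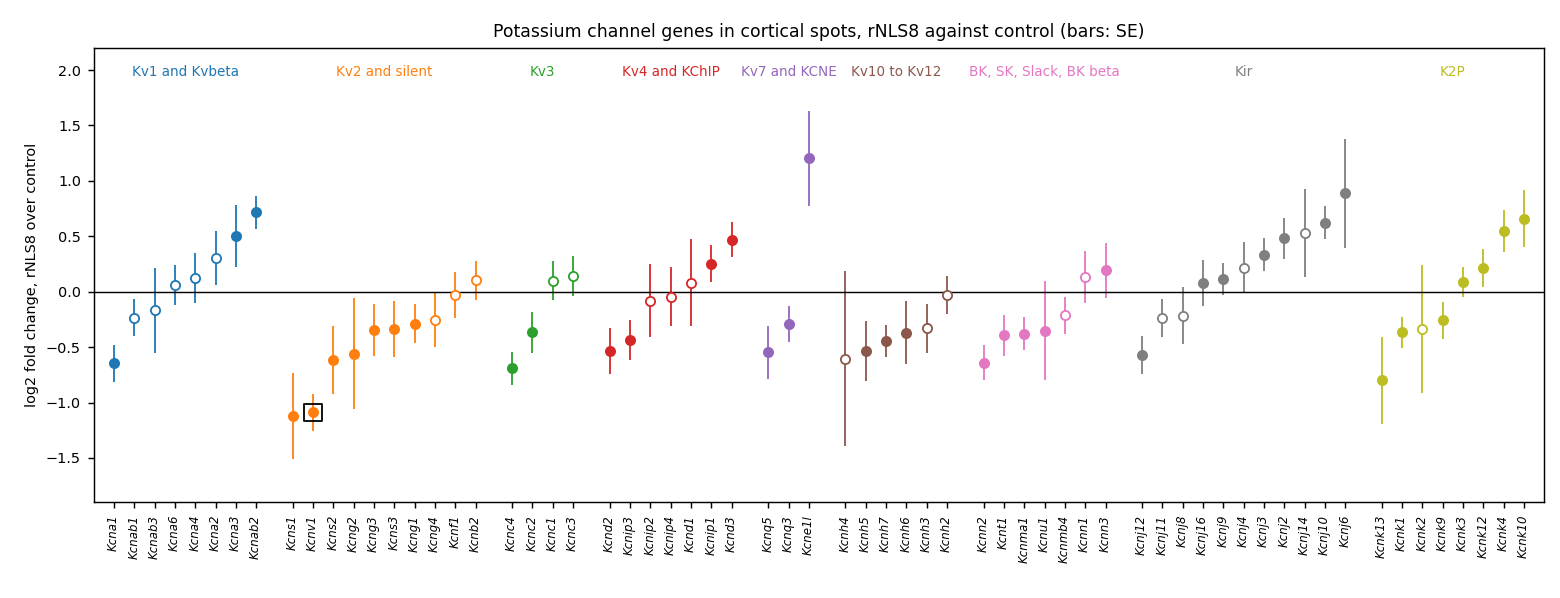
Log2 fold change (rNLS8 over control, y axis) with its SE for 64 of the 67 members tested in cortex, in blocks by role. Filled points mark members whose 2 rNLS8 values do not overlap the 2 control values, and the square marks Kcnv1, the member with an adjusted p under 0.05. Kir members lie mostly above 0 and Kv2 and silent subunits mostly below it.

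In the same cortical spots, marker sums of microglia, reactive astrocytes and excitatory neurons stood apart between the groups. Those of astrocytes and inhibitory neurons overlapped. Of all genes tested in cortex, 0.515% were called higher and 0.686% lower. The microglia markers summed to 1188 and 1777 CPM in rNLS8 against 410 and 566 CPM in control, with 7 of 14 called higher and 0 lower. The reactive astrocyte markers summed to 640 and 1286 CPM in rNLS8 against 165 and 157 CPM in control, with 2 of 9 tested called higher. The 11 astrocyte markers summed to 4430 and 4623 CPM in rNLS8 against 3562 and 4473 CPM in control, and 0 of them was called. The 11 excitatory neuron markers summed to 9989 and 10234 CPM in rNLS8 against 12949 and 12514 CPM in control, with 0 called, and the 13 inhibitory neuron markers to 1863 and 1673 CPM in rNLS8 against 1755 and 2352 CPM in control, with 1 called lower. The part of cell composition in the potassium channel values was not tested.

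Genes whose products bind or regulate these channels were followed as a list of 31, of which 29 were tested in cortex and 0 were called. Lrrc26, a BK gamma subunit, was at 0 in all sections. Without overlap, 6 of the 29 were higher and 12 lower, against 28.9% and 26.5% of all genes. In the astrocytic complex around Kcnj10, the water channel Aqp4 averaged 34.7 CPM in rNLS8 and 17.3 CPM in control (log2 fold change 1.00, adjusted p = 0.0782 in edgeR's test). Among partners of Kv1 channels on the axon, 4 of 6 were lower without overlap, against the same 26.5% of all genes, with a median log2 fold change of -0.58. They included Lgi1, a secreted synaptic protein, with a mean of 111 CPM in rNLS8 and 173 CPM in control (log2 fold change -0.64). Akap5, which anchors kinases at Kv7 channels, averaged 40.7 CPM in rNLS8 and 67.9 CPM in control (log2 fold change -0.74).

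Split by layer, Kcnab2, Kcnc4 and Kcnv1 passed the test in the upper class, Kcnv1 in layer 5 and Kcnab2 in layer 6. The upper class test covered 62 members among 10666 genes and called 1 member higher and 2 lower, against 1.22% and 1.84% of all genes. In layer 5, 0 of 62 members were called higher and 1 lower, against 1.24% and 1.81% of 10863 genes. In layer 6, 1 of 60 members was called higher and 0 lower, against 0.786% and 1.49% of 10562 genes. Without the control section of replicate 1 there were 4 calls among members in the upper class, 16 in layer 5 and 13 in layer 6, against 4.15%, 13.4% and 11.3% of all genes. Without that of replicate 2 there were 11, 22 and 14, against 17.8%, 31.8% and 26.5%. Without the rNLS8 section of replicate 1 there were 2, 1 and 1, against 1.80%, 1.77% and 1.24%, and without that of replicate 2 there were 0 in each, against 0.66%, 0.958% and 0.658%.

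In the upper class Kcnab2 had 1181 and 1217 CPM in rNLS8 against 671 and 615 CPM in control. The rNLS8 sections lay close to each other and far above both control sections, with a log2 fold change of 0.90 ± 0.17 (adjusted p = 0.0233 in edgeR's test; 0.218 without the rNLS8 section of replicate 1 and 0.382 without that of replicate 2). In layer 5 it had 1082 and 1027 CPM in rNLS8 against 773 and 647 CPM in control (log2 fold change 0.57 ± 0.16, adjusted p = 0.0889 in edgeR's test). In layer 6 it had 1050.5 and 978 CPM in rNLS8 against 667 and 559 CPM in control (log2 fold change 0.73 ± 0.15, adjusted p = 0.0309 in edgeR's test; 0.320 and 0.239 without the rNLS8 sections of replicates 1 and 2). The difference between layer effects was tested with section as a block, and among 65 members it called 1 for upper minus layer 5, a positive one, and 0 negative, against 0.221% and 0.319% of all 11290 genes. That member was Kcnab2, with a larger effect in the upper class than in layer 5 by 0.32 ± 0.07 on the log2 scale (adjusted p = 0.0104 for the interaction in edgeR's test). That difference was not called without the control section of replicate 1 (adjusted p = 0.315 in edgeR's test), without the rNLS8 section of replicate 2 (0.341) or by DESeq2 (0.0642).

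Kcnc4 had 123 and 121 CPM in the rNLS8 upper class against 262 and 210 CPM in the control upper class, a log2 fold change of -0.95 ± 0.19 (adjusted p = 0.0260 in edgeR's test; 0.192 and 0.336 without the rNLS8 sections of replicates 1 and 2). In layer 5 it had 146 and 153 CPM in rNLS8 against 255 and 213 CPM in control, and in layer 6 it had 189 and 209 CPM in rNLS8 against 281 and 264 CPM in control. The groups stood apart in each class, and the gap was widest in the upper class. For upper minus layer 6 the test of the difference called 0 members as positive and 1 as negative, against 0.0709% and 0.328% of all genes. The negative one was Kcnc4, lower in the upper class than in layer 6 by a log2 difference of -0.48 ± 0.11 (adjusted p = 0.0140 for the interaction in edgeR's test). The difference was not called without the control section of replicate 1 (adjusted p = 0.294 in edgeR's test), without the rNLS8 section of replicate 2 (0.289) or by DESeq2 (0.334).

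Kcnv1 had 15.7 and 21.3 CPM in the rNLS8 upper class against 45.9 and 37.2 CPM in the control upper class (log2 fold change -1.17 ± 0.26, adjusted p = 0.0399 in edgeR's test). In layer 5 it had 16.8 and 16.1 CPM in rNLS8 against 40.6 and 39.7 CPM in control (log2 fold change -1.28 ± 0.21, adjusted p = 0.0195 in edgeR's test), and in layer 6 it had 18.6 and 19.9 CPM in rNLS8 against 26.1 and 36.6 CPM in control (log2 fold change -0.72 ± 0.26, adjusted p = 0.170 in edgeR's test). The rNLS8 values were near the same level in all 3 classes, whereas control values were lowest in layer 6. Spots of layers 5 and 6 came mostly from different clusters in rNLS8 and control, as given below. The upper class call was lost without the control section of replicate 1 (adjusted p = 0.0643 in edgeR's test), without the rNLS8 sections of replicates 1 (0.292) and 2 (0.0834), and with DESeq2 (0.0516). The layer 5 call was lost without the rNLS8 sections of replicates 1 (adjusted p = 0.0546 in edgeR's test) and 2 (0.117).

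Most spots of the upper class belonged to cluster 8 in control (216 of 345 and 224 of 282), and cluster 8 also held 168 of 297 and 119 of 316 in rNLS8. Within these spots of a shared cluster the same 3 members were called, 1 higher and 2 lower, against 1.39% and 2.69% of 9727 genes. Kcnab2 had 1340 and 1565 CPM in rNLS8 against 729 and 649 CPM in control there (log2 fold change 1.07, adjusted p = 0.00325 in edgeR's test). Kcnc4 had 108 and 79.9 CPM in rNLS8 against 256 and 201 CPM in control (log2 fold change -1.27, adjusted p = 0.00439 in edgeR's test), and Kcnv1 had 18.2 and 14.7 CPM in rNLS8 against 44.9 and 36.8 CPM in control (log2 fold change -1.27, adjusted p = 0.0282 in edgeR's test). Over all spots of cluster 8, 1 of 57 members was called higher and 1 lower, against 0.907% and 1.99% of 9810 genes. Over cluster 1, 5 of 63 members were called higher and 3 lower, against 1.79% and 2.97% of 11510 genes. The members higher there were Kcnab2, Kcnj10, Kcnj3, Kcnk4 and the silent subunit Kcng4, and the members lower were Kcnc4, Kcnv1 and Kcng1. Cluster 1 held unlike mixtures of layers: 129 and 197 of its spots were in the upper class in rNLS8 against 90 and 42 in control, and 284 and 329 in layer 5 in rNLS8 against 61 and 55 in control. In layer 5, cluster 7 held 279 of 362 and 178 of 254 control spots, against 2 and 0 spots in rNLS8. In layer 6 it held 163 of 236 and 138 of 208 control spots, against 0 and 0 in rNLS8. The rNLS8 spots of layers 5 and 6 were nearly all of cluster 1. Layers 5 and 6 were not tested within a shared cluster.

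**Figure D4:**
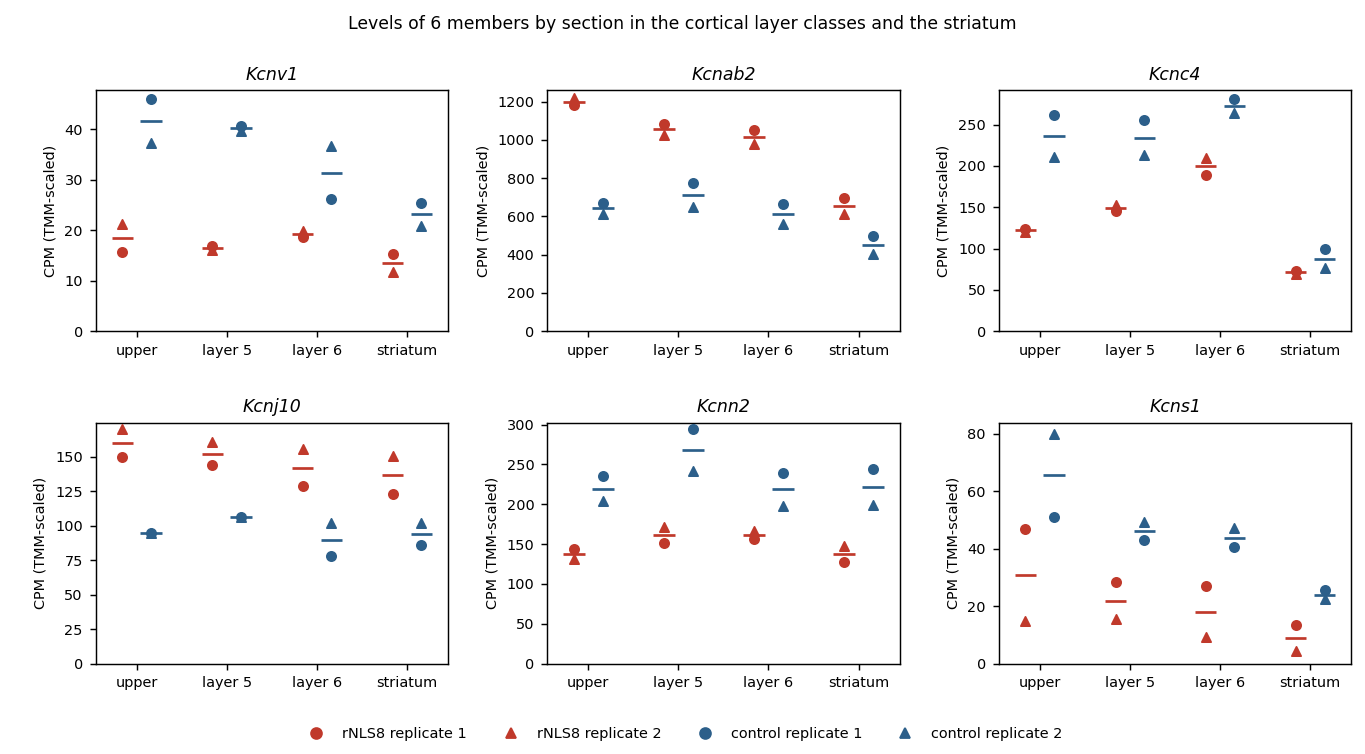
TMM-scaled CPM of Kcnv1, Kcnab2, Kcnc4, Kcnj10, Kcnn2 and Kcns1 in each section for the upper, layer 5 and layer 6 classes of cortex and for striatum, with rNLS8 left of control, circles for replicate 1, triangles for replicate 2 and lines at the means. In the 3 layer classes, the rNLS8 and control points of each of these genes do not overlap.

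Over the 60 members tested in all 3 layer classes, 5 were higher without overlap in all 3 classes, against 13.2% of 10336 genes, and 10 were lower in all 3, against 13.8%. The 5 higher members were Kcnab2, Kcnd3, Kcnj10, Kcnj3 and Kcnk10. The 10 lower members were Kcnc4, Kcnh7, Kcnip3, Kcnj12, Kcnk1, Kcnma1, Kcnn2, Kcns1, Kcnt1 and Kcnv1. The classes share their sections and are not independent. Kcnj10 in the upper class had 150 and 170 CPM in rNLS8 against 94.4 and 94.8 CPM in control and did not pass edgeR's test (adjusted p = 0.0505), while DESeq2 called it. Kcns1 in the upper class had a log2 fold change of -1.08 (adjusted p = 0.177 in edgeR's test), which was -2.16 without the rNLS8 section of replicate 1 (adjusted p = 5.34e-05 in edgeR's test). In layer 6 its log2 fold change was -1.25 (adjusted p = 0.107 in edgeR's test), and it was called without either control section or without the rNLS8 section of replicate 1, at -1.34, -1.16 and -2.27. Kcnj14 and Kcne1l, both at low counts, had the largest positive changes in layers 5 and 6, of 1.25 and 1.55 in layer 5 and 1.27 and 1.36 in layer 6, none of which passed the test; Kcne1l in layer 6 was 2.19 without the control section of replicate 2 (adjusted p = 0.0405 in edgeR's test).

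In the striatum no member passed the test: 0 of 68 were called, against 0.205% of all genes higher and 0.262% lower, while 20 reached an unadjusted p under 0.05, against 14.9% of all genes. DESeq2 called 4, Kcnab1, Kcnd2, Kcnip1 and Kcnn2, against 2.83% of all genes. Without overlap, 20 were higher and 24 lower, against 25.4% and 23.6% of 12224 genes. Kcnd2, highest in control striatum, had 69.8 and 62.4 CPM in rNLS8 against 108 and 122 CPM in control (log2 fold change -0.79 ± 0.16, adjusted p = 0.0911 in edgeR's test). Kcnab1, also highest in control striatum, had 970 and 678 CPM in rNLS8 against 1193 and 1419 CPM in control (log2 fold change -0.66 ± 0.21, adjusted p = 0.206 in edgeR's test). For both genes the rNLS8 values lay below both control values, and neither change passed the test. Kcnip2, which was also highest in control striatum, had 252 and 165 CPM in rNLS8 against 191 and 253 CPM in control, with overlap. Kcnip1, a KChIP, had 45.3 and 79.0 CPM in rNLS8 against 32.3 and 27.9 CPM in control, and Kcna3, a Kv1 pore subunit also found in immune cells, had 29.3 and 27.4 CPM in rNLS8 against 15.3 and 16.5 CPM in control. The largest negative fold changes without overlap were those of Kcnh4 (-1.62, on 1.73 and 3.12 CPM in rNLS8 against 4.61 and 8.78 CPM in control), Kcns1 (-1.27) and Kcnk13 (-1.09). The rNLS8 section of replicate 2 held fewer striatal spots, and without it 0 members were called, against 0.197% of all genes. Without that of replicate 1 there were 2 (Kcnip1 and Kcns1), against 1.05% of all genes. Without the control section of replicate 2 there were 5, against 10.2%, and without that of replicate 1 there were 6, against 3.97%.

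Whether the rNLS8 effect differed between cortex and striatum was tested directly with section as a block. No member was called among 69 tested, against 0.238% of 12627 genes with a positive and 0.372% with a negative difference. The smallest p belonged to Kcnc4, with a log2 difference of -0.44 ± 0.12 (adjusted p = 0.113 in edgeR's test); its striatal values were 73.3 and 69.0 CPM in rNLS8 against 99.5 and 76.2 CPM in control. Without the rNLS8 section of replicate 1, 4 members were called, Kcnab1, Kcnh5, Kcnip1 and Kcnk12, against 3.14% of all genes, and without the control section of replicate 1 Kcnab1 alone was, against 0.239%.

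In fibre tracts 0 of 53 members were called, against 0.0208% of all genes higher and 0.0104% lower, and 4 had an unadjusted p under 0.05, against 12.6% of all genes. Kcnab2 had 666 and 616 CPM in rNLS8 against 424 and 336 CPM in control (log2 fold change 0.76 ± 0.17, adjusted p = 0.187 in edgeR's test) and was called by DESeq2. Kcnk13, highest in control fibre tracts, had 10.9 and 4.32 CPM in rNLS8 against 16.1 and 16.6 CPM in control (log2 fold change -1.06 ± 0.50, adjusted p = 0.419 in edgeR's test), on 21 and 7 UMI in rNLS8 against 11 and 13 UMI in control. Kcnj3 had 107 and 85.7 CPM in rNLS8 against 63.0 and 48.5 CPM in control, and Kcnn2 had 124 and 148 CPM in rNLS8 against 211 and 252 CPM in control. Kcnab2 and Kcnn2 were called without the control section of replicate 1, and these and Kcnc2 without that of replicate 2, against 0.695% and 6.5% of all genes.

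In meninges 0 of 56 members were called, against 0.0794% of all genes higher and 0.189% lower, and 14 had an unadjusted p under 0.05, against 11.2% of all genes. Kcnc4 had 109.8 and 109.6 CPM in rNLS8 against 223 and 175 CPM in control (log2 fold change -0.85 ± 0.20, adjusted p = 0.126 in edgeR's test), and Kcnk4 and the silent leak subunit Kcnk12 had log2 fold changes of 0.89 and 0.97. These spots do not hold meninges alone: the 9 neuronal markers summed there to 7067 and 6535 CPM in rNLS8 against 7959 and 8226 CPM in control. In septum and basal forebrain 0 of 61 members were called, against 0.0% of all genes higher and 0.00934% lower, and 6 had an unadjusted p under 0.05, against 5.35% of all genes. The largest changes without overlap there were those of the silent subunits Kcns2 (3.31 and 1.96 CPM in rNLS8 against 11.5 and 5.94 CPM in control, on 13 and 1 UMI in rNLS8 against 28 and 13 UMI in control), Kcns3 (log2 fold change 1.13) and Kcng1 (-0.91), each with an adjusted p of 0.849 in edgeR's test, and the rNLS8 section of replicate 2 contributed only 75 spots. Without the control sections of replicates 1 and 2 there were 8 and 10 calls among members in meninges, against 3.32% and 13.6% of all genes. In septum and basal forebrain there were 2 and 5, against 0.470% and 7.82%. Leaving out either rNLS8 section left 1 section in that group. The member calls seen without a control section did not recur in either region, and fewer of all genes were called.

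**Figure D5:**
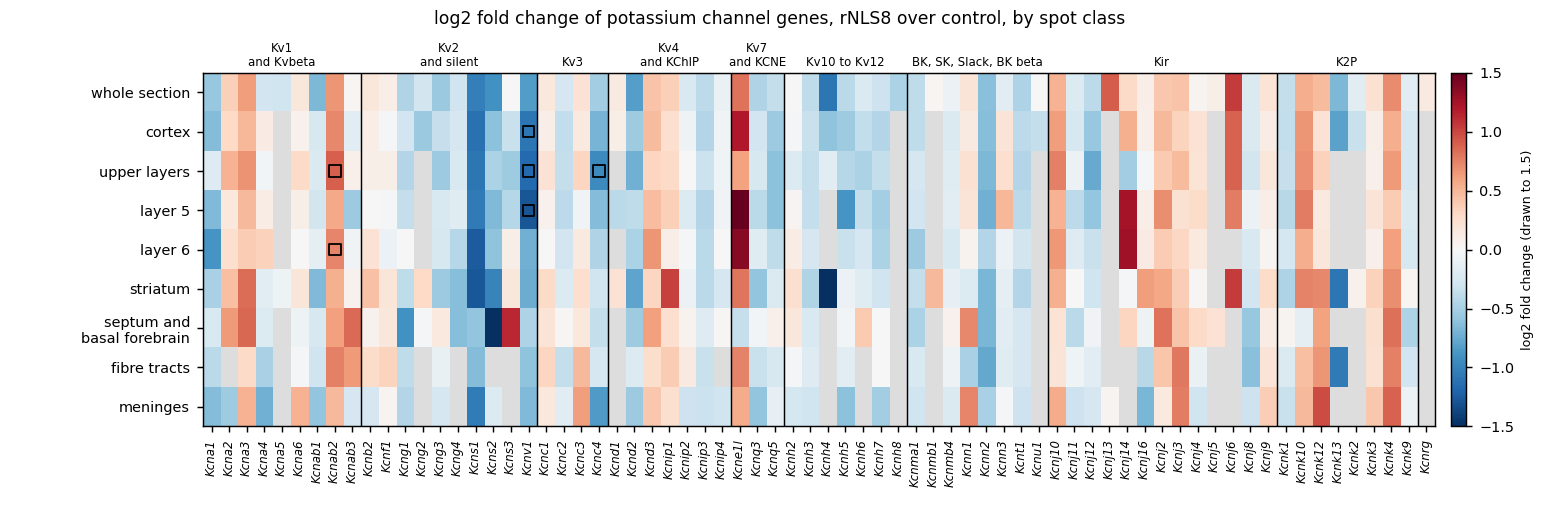
Log2 fold change (rNLS8 over control) of 70 members in whole sections, the 5 regions and the 3 cortical layer classes, drawn to ±1.5, with grey for classes in which a member was not tested and squares for an adjusted p under 0.05. Kcnab2 is positive and Kcnc4, Kcnn2 and Kcnv1 are negative in every class in which they were tested.

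Spatial pattern was read from Moran's I in the authors' deposited tables, a score that is near 0 where neighbouring spots are unrelated and rises where they resemble each other. The test took the 6321 genes that had UMI in 10% or more of the spots of every section, of which 41 were members, and limma called 0 of them, against 0.0316% of all genes higher and 0.0% lower; 2 members had an unadjusted p under 0.05, against 14.4% of all genes. Moran's I was higher in rNLS8 without overlap for 2 members, against 5.33% of all genes, and lower for 9, against 46.9%. Kcnab2 was the clearest of them: its Moran's I was 0.238 and 0.204 in rNLS8 against 0.0870 and 0.113 in control, a difference of 0.121 ± 0.026 (SE; adjusted p = 0.229 in limma). Both rNLS8 sections thus had a higher score for this gene than either control section, while most genes that differed without overlap did so downwards. Its level was also higher in rNLS8, with a log2 fold change of 0.67 in whole sections. The median UMI per spot was 9776 and 6316 in rNLS8 against 5364 and 6098 in control. The part of level and depth in Moran's I was not tested. Kcnn2 had a Moran's I of 0.0334 and 0.0213 in rNLS8 against 0.0811 and 0.0502 in control, and Kcnv1 0.0106 and 0.0150 in rNLS8 against 0.0224 and 0.0343 in control.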

How the data were processed

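The authors deposited UMI counts for each gene in each tissue-covered spot of 4 sections (Space Ranger 2.1.0 and the mm10 build, per the submitters' processing notes), as whole numbers without normalization. The authors also deposited, per gene and section, Moran's I (a score of spatial autocorrelation), its p-value and a mean signal per spot after scaling spots, per the file headers; the p-value and the signal were not used. Array positions of the spots are as deposited.

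The members, gene lists and comparisons were chosen with earlier results of these data known. Spots under 500 UMI were left out. The rest were scaled to 10000, and 2000 variable genes without Kcn, partner and response genes gave 30 components, 15 neighbours and Leiden clusters at resolution 1 (leidenalg 0.10.2), named from marker lists; no doublet caller was run, since a spot can hold several cells. Cortical layer classes came from marker scores. UMI were summed per section and class and tested in R 4.3.3 with edgeR 4.0.16 (TMM factors, filterByExpr, quasi-likelihood), all genes adjusted together by Benjamini-Hochberg at 0.05; differences between classes had section as a block. Moran's I was tested with limma 3.58.1. "Without overlap" means that both sections of a group lay on one side of both of the other. Scripts were tested on simulated data. CPM by control region and control layer, of Rasgrf2 and Calb1, of Y-linked genes and of the floors are on plain totals. Other CPM are TMM-scaled.

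Members named are those called in any comparison, the 6 largest changes each way without overlap in whole sections and cortex, the 2 with most UMI per role group, the 3 largest without overlap elsewhere, those next to the minimum, and partner genes with the 2 largest changes each way in cortex; others in lists were named after their values were seen. Some genes that this rule names are not reported here, though they remain in the counts, medians and fits. Alternatives were DESeq2 1.42.0, its size factors, the replicate number as a block, each section left out, no filter, other spot choices, and, chosen after seeing the data, single clusters. Replicate numbers did not pair sections (r = -0.013 in whole sections, -0.034 in cortex). Intervals and floors cover counting error only.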

Additional observations from a re-analysis of the deposited data

Results flagged for a closer look

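The change of Kcnc4 in rNLS8 differed between the upper cortical class and layer 6: the test of the difference itself gave -0.48 on the log2 scale (upper minus layer 6), with fold changes of -0.95 in the upper class and -0.45 in layer 6. It passed edgeR's test with all sections (adjusted p = 0.0140). It was not called without the control section of replicate 1 (adjusted p = 0.294 in edgeR's test), without the rNLS8 section of replicate 2 (adjusted p = 0.289 in edgeR's test) or by DESeq2 (adjusted p = 0.334). The change of Kcnab2 differed between the upper class and layer 5, by 0.32 on the log2 scale (upper minus layer 5), with fold changes of 0.90 in the upper class and 0.57 in layer 5. It too passed edgeR's test with all sections (adjusted p = 0.0104). The call was lost without the control section of replicate 1 (adjusted p = 0.315 in edgeR's test), without the rNLS8 section of replicate 2 (adjusted p = 0.341 in edgeR's test) and by DESeq2 (adjusted p = 0.0642). Calb1, a score marker of the upper layers, was itself lower in the rNLS8 upper class. Spots of layers 5 and 6 came mostly from different clusters in rNLS8 and control. The part of either in these differences was not tested.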

How the results depend on the processing

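With 2 sections a group, few calls were stable. For the number of members called, with the share of all genes called in brackets, DESeq2 gave 5 in whole sections (3.86%) and 6 in cortex (5.67%). It gave 1 in fibre tracts (0.332%), 4 in striatum (2.83%) and 5 in layer 5 (4.23%). For upper minus layer 6 (0.0531%) and upper minus layer 5 (0.0974%) DESeq2 gave 0. Its size factors in edgeR gave 2 in layer 5 (3.29%). In cortex, no count filter gave 3 (3.94%), the marker score 0 (1.09%), cluster 1 alone 8 (4.76%) and cluster 8 alone 2 (2.9%). The last pair was chosen after seeing the data. The replicate block gave 7 in cortex (8.42%) and 5 in layer 6 (6.43%), and it left the other counts within 1.5 times. Same-numbered sections shared a number and a label for sex. The Y-linked counts of the rNLS8 section of replicate 1 go against that label. Leaving out each section gave 0 to 8 in whole sections, 0 to 25 in cortex, 0 to 3 in fibre tracts, 0 to 10 in meninges, 0 to 5 in septum and basal forebrain, 0 to 6 in striatum, 0 to 11 in the upper class, 0 to 22 in layer 5, 0 to 14 in layer 6, 0 to 4 for cortex minus striatum, 0 to 1 for both layer differences and 0 to 1 for Moran's I. A section left alone in its group is assumed to vary like the other pair. The causes were not tested.

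Of the values for named genes, 588 kept direction and side of the threshold, 22 lost a call, 67 gained one and 15 turned sign, in 8 of 74 results, whose values as reported lay between -0.23 and 0.16. In whole sections, leaving out each section gave -0.10 to 0.31 for Kcnf1, -0.057 to 0.34 for Kcnc1, -0.86 to 0.20 for Kcnip2, -0.33 to 0.13 for Kcnmb4 and -0.28 to 0.69 for Kcnrg. In cortex it gave -0.29 to 0.26 for Kcnf1, -0.12 to 0.29 for Kcnc1 and -0.71 to 0.35 for Kcnip2. Cortical Kcnf1 was 0.045 by marker score, and cortical Kcnip2 was 0.30 in cluster 8 alone. Cortex with all spots under tissue was not run, because spots under 500 UMI were not clustered. Members under about 20 UMI a section, such as Kcne1l and Kcnk13 in single classes, are limited by depth.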
